A study of Mus musculus with 8 samples.

Results

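Of 24963 autosomal genes in the annotation, 13666 carried an H3K4me3 peak at a promoter in mouse epidermis, and 5850 of these (42.8% of all H3K4me3 genes, 95% interval 42.0 to 43.6) also carried MOF there. These 5850 MOF-bound genes are described here against the other 7816, the MOF-free genes. A promoter was the window from 1 kb upstream to 100 bp downstream of the transcription start site (TSS) of a curated RefSeq transcript. A gene entered when at least 1 bp of such a window overlapped an H3K4me3 peak, and it was MOF-bound when the same window overlapped a MOF region. The split used nothing else, so gene function, gene length, CpG content, paired TSSs and the width and fold of the H3K4me3 peak were left to compare.

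All chromatin came from wild-type mice at postnatal day 0.5, for which the labels name no treatment, and was taken from the whole epidermis of the back skin after enzymatic separation from the dermis. MOF was mapped by ChIPseq on fixed cells with single-end reads. H3K4me3, H3K27ac and the transcription factor Rfx2 were mapped by Cut&Run, in which an antibody tethers a nuclease to its target and the released fragments are read from both ends. For each antibody 1 peak list from 1 library was analysed here. The H3K4me3 list is filed with the repeat library of 2, but the word rep is missing from its name, and the library it was called on is therefore uncertain. The MOF list holds 17546 regions. It is longer than the set of MOF peaks described in the study, so it may be another or a less strict call, and every bound or free call here rests on it. With its upper 50% by score alone, the share of H3K4me3 genes with MOF was 26.7% in place of 42.8%. No replicate stands behind any value below, and no test across replicates was possible. The 95% intervals (exact for a share, Newcombe's for a difference of shares, from order statistics for a median) cover counting error over genes only, and they are too narrow because genes that share a promoter share a peak. As a second description, several differences are given with the number of the 19 autosomes that show them. The lists carry no read counts. The study reports the reads of each library, which differ between antibodies, but depth was not taken into account here. A promoter without MOF is therefore one at which no MOF region was listed. Epidermis holds several cell types, and a mark in fewer cells cannot be told apart from a weaker mark in every cell.

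MOF, also called KAT8, is the acetyltransferase that places the acetyl group on lysine 16 of histone H4. It works in the MSL complex and in the NSL complex, the latter of which is known for binding promoters of broadly used genes. H3K4me3, trimethylation of lysine 4 of histone H3, marks the nucleosomes around the start sites of active genes and of many CpG-rich promoters that are poised, and H3K27ac marks active promoters and enhancers.

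The tissue label was checked on marker genes. H3K4me3, found at 13666 of all 24963 autosomal genes, was present at 12 of 15 epidermal markers. Among them were Krt5 and Krt14, the keratin pair of basal cells, and Trp63, the p63 factor of stratified epithelium. The 3 without a peak were Itga6, an integrin of basal cells, and Krt1 and Krt10, keratins of suprabasal cells. Of the other cell types, 2 of 6 melanocyte markers (Pmel and Mlana), 2 of 6 fibroblast markers (Col1a2 and Pdgfra) and 1 of 4 endothelial markers (Kdr) carried H3K4me3. No immune marker of 4 and none of 5 autosomal markers of muscle, neurons and liver did. Among the 12 epidermal markers with H3K4me3 Krt14 was the only MOF-bound gene, where 42.8% of all H3K4me3 genes were bound. Both fibroblast genes were bound, but 2 genes are too few to compare cell types.

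The comparison can be seen first in 6 promoters, 3 from each group, chosen from classes on which the results turn: a paired promoter of a mitochondrial protein, a keratin and a lineage factor. They are read 5′ to 3′ on the strand of the named gene from the RefSeq assembly GRCm38.p6 (mm10), and capitals mark matches to the 14 short motifs described further on. For the paired genes the run is everything between both start sites, and for the others it is the 250 bases before the TSS.

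The MOF-bound promoters are those of Sdha and Ccdc127 (chr13:74350241-74350316, minus strand), Krt14 (chr11:100207511-100207760, minus strand) and Klf11 (chr12:24651121-24651370, plus strand).

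Sdha and Ccdc127: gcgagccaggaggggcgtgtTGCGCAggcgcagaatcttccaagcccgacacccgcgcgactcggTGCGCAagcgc

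Krt14: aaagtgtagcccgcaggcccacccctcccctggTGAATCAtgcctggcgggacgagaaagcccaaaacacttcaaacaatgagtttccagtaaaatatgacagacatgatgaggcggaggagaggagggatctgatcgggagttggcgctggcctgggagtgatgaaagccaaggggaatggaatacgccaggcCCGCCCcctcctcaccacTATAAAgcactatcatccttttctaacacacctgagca

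Klf11: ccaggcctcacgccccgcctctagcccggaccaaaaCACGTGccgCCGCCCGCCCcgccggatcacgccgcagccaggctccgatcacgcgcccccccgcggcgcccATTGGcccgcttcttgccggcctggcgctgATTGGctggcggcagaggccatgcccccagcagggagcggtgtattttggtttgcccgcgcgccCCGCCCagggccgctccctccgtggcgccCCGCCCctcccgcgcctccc

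The MOF-free promoters are those of Mrpl10 and Lrrc46 (chr11:97041370-97041581, plus strand), Krt5 (chr15:101712906-101713155, minus strand) and Trp63 (chr16:25801666-25801915, plus strand).

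Mrpl10 and Lrrc46: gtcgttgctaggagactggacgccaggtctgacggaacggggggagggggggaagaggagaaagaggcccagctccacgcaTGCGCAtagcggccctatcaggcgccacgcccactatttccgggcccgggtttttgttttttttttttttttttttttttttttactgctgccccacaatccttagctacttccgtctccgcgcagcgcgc

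Krt5: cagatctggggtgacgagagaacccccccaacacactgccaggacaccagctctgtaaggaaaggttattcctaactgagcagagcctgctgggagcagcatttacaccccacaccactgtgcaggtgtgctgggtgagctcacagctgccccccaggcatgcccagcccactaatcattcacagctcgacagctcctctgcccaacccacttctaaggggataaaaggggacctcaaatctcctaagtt

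Trp63: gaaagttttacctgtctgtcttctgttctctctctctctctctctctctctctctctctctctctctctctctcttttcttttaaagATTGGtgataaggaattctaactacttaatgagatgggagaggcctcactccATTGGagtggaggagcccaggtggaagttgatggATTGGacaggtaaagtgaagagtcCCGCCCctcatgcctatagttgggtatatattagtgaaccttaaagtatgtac

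Sdha encodes the flavoprotein subunit of succinate dehydrogenase. Its start site lies 77 bp from that of Ccdc127 on the other strand, and the 76 bases between them hold 11 CpGs and 2 matches to the NRF1 letters TGCGCA. A MOF region of 922 bp (score 1160) and an H3K4me3 peak of 1436 bp (fold 9.14) covered both start sites. Mrpl10, a protein of the large mitochondrial ribosomal subunit, is also paired, with Lrrc46 at 213 bp, and has 16 CpGs and 1 NRF1 match between the start sites. Its H3K4me3 peak was higher in fold (13.67) and narrower (1038 bp), and the nearest MOF region was 60.2 kb away. Klf11, a zinc finger factor of the KLF family, has 32 CpGs in 250 bases, 4 matches to the SP letters GGGCGG and a MOF region of 1579 bp. Both basal keratins have few CpGs, 8 at Krt14 and 2 at Krt5. The Krt14 run shown precedes the outermost start site of the gene and lies within a MOF region of 431 bp (score 516). This region does not reach the window of the Krt14 start site that shares most bases with H3K4me3. Krt14 thus counts as bound at its outer start site. Its keratin partner Krt5 had a wider H3K4me3 peak, 2710 bp against 2421 bp, with the nearest MOF region 26.2 kb away. Trp63, shown at the start site of its shorter N-terminal form, has 1 CpG in 250 bases and an H3K4me3 peak of 3941 bp, and its nearest MOF region was 40.9 kb away. Within each class the examples were chosen so that 1 had MOF and 1 did not.

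At promoters MOF was mostly found together with H3K4me3. Of 6130 autosomal genes with MOF at any promoter, 95.8% had H3K4me3, and of the 11297 autosomal genes without H3K4me3 258 (2.28%) had MOF. Another 22 genes had MOF at a start site without H3K4me3 and H3K4me3 at another one, and these were counted as MOF-free. The share of H3K4me3 genes with MOF ran from 35.6% on chromosome 15 to 50.6% on chromosome 13.

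Paired start sites were the feature of gene arrangement in which the groups differed most. A gene was called paired when another gene started on the opposite strand within 1 kb upstream and pointed away from it. Among MOF-bound genes 1674 (28.6%) were paired, and among MOF-free genes 1084 (13.9%) were, a difference of 14.7 percentage points (13.4 to 16.1) with the same sign on 19 of 19 autosomes. Read the other way, 60.7% of 2758 paired genes and 38.3% of 10908 unpaired genes had MOF. The windows of a pair overlap by construction, and when each H3K4me3 peak was counted for 1 gene only the difference was 9.67 points. The share differed with the kind of partner. Coding genes paired with another coding gene were MOF-bound in 1178 of 1757 cases (67%), those paired with a long noncoding RNA in 218 of 458 (47.6%), and unpaired coding genes in 3917 of 10077 (38.9%). Long noncoding RNAs were bound in 217 of 451 cases (48.1%) when paired with a coding gene and in 169 of 535 (31.6%) when unpaired. The distance between the start sites made less difference. The share was 61.1% for 100 bp or less, 62.0% for over 100 to 200 bp, 62.8% for over 200 to 400 bp and 53.9% for over 400 to 1000 bp, and the median distance was 147 bp in bound and 155 bp in free pairs. Of 1380 pairs with H3K4me3 at both genes, 823 had MOF at both, 514 at neither and 43 (3.12%) at one alone.

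Several named pairs illustrate this. Lyrm4 and Fars2, an iron-sulphur cluster factor and the mitochondrial phenylalanyl-tRNA synthetase, start 286 bp apart and shared an H3K4me3 peak of 2020 bp, a MOF region of 1200 bp (score 996) and an Rfx2 peak. Sirt3, the mitochondrial deacetylase, and Psmd13, a proteasome subunit, shared a MOF region of 970 bp with a score of 835, also with Rfx2. The paired bound genes with the highest H3K4me3 fold were Mterf4 (14.8), Mpv17l (14.7), Tex14 (14.5), Ttc16 (14.4) and Dand5 (14.2). Their MOF-free counterparts reached higher folds, with Pecr at 18.5, Gm13822 at 17.5, Haghl at 16.9, Ankrd24 at 16.9 and 1810034E14Rik at 16.2. Tex14 is paired with Rad51c, a repair gene that was itself MOF-free, and is one of the cases in which the windows of a pair were split.

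The groups differed in the width of the H3K4me3 peak, and less and with no constant sign in its fold. Median width was 1476 bp (quartiles 1162 and 1831) at MOF-bound genes and 1199 bp (quartiles 809 and 1571) at MOF-free genes. The ratio of the medians was 1.23 (1.2 to 1.27), it was above 1 on 19 of 19 autosomes, and 72.4% of bound genes lay above the median of the free genes. Peaks of 2000 bp or more were found at 17.1% of bound and 9.86% of free genes. Paired genes had wider peaks in both groups, and the difference was present in each class, with medians of 1689 bp against 1493 bp in paired genes and 1382 bp against 1148 bp in unpaired genes. Median fold enrichment was 8.06 at bound and 7.95 at free genes, a ratio of 1.01 whose interval (0.990 to 1.04) includes 1, with bound genes higher on 13 of 19 autosomes. Averaged over 10 classes of CpG content the fold ratio was 1.06, with bound genes higher in 9 of 10, and with H3K4me3 peaks in the upper 50% of significance alone it was 0.939 (0.919 to 0.961).

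When genes were sorted into 10 classes of equal size by width, the share with MOF was 14.1% in the narrowest class (200 to 580 bp) and 33.7% in class 3. It was 44.9% in class 5, 57.9% in class 9 and 55.8% in the widest (2105 to 4157 bp). By fold it was 31.6% in the lowest class, 48.5% in class 5 and 41.9% in the highest, so the highest folds did not carry the most MOF. These shares, with those by CpG content and gene length, are drawn in the panels on MOF share by class.

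**Figure D1:**
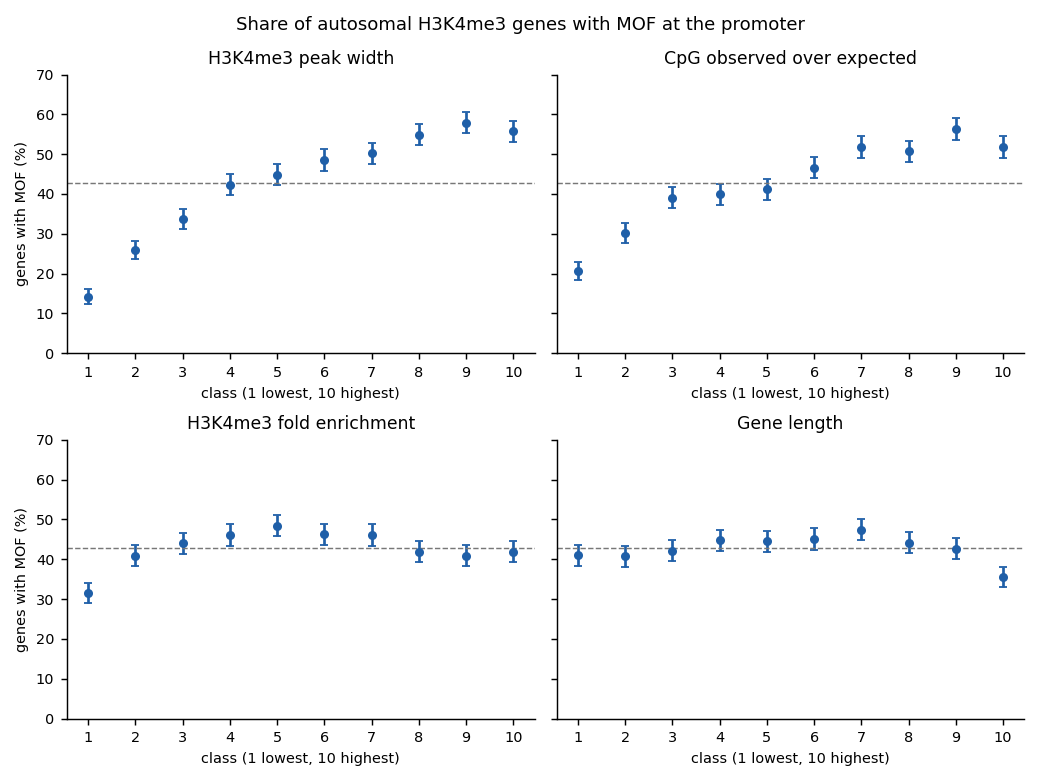
Share of autosomal H3K4me3 genes with MOF at the promoter (%, vertical axes) in 10 classes of equal size by each feature named above a panel, from the lowest class (1) to the highest (10). Points are shares, bars are exact 95% intervals over genes, and the dashed line is the share over all 13666 genes (42.8%); the share goes from 14.1% to 55.8% across width and stays between 35.6% and 47.5% across gene length.

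The extremes of width show both groups side by side. The MOF-bound genes with the widest H3K4me3 were Esrp1 (4157 bp), an epithelial splicing regulator, Chd2 (3962 bp), a chromatin remodeller, Zc3h4 (3787 bp), Ppp1r15b (3776 bp) and Ttc9c (3756 bp), which is paired with Hnrnpul2. The MOF-free genes with the widest peaks were Pkp1 (4116 bp), a desmosomal plakophilin, Zmiz1 (3947 bp), Trp63 (3941 bp) and the pair Marcks and 5930403N24Rik (3847 bp). Pkp1 had a MOF region 1.54 kb from its window, whereas the nearest one to Zmiz1 was 106 kb away. Wide H3K4me3 was thus found with and without MOF, and the free list of 5 holds a desmosome gene and the p63 gene.

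MOF-bound promoters held more CpGs for their base composition. CpG observed over expected, the number of CpGs divided by the number that the C and G content predicts, had a median of 0.660 in the promoter window of bound genes and 0.576 in that of free genes. The difference was 0.0841 (0.0725 to 0.0964), it had the same sign on 19 of 19 autosomes, and 67.6% of bound genes lay above the free median. The median number of CpGs in the window was 49 against 43. GC content differed by less than 1 percentage point, with medians of 53.0% in bound and 53.4% in free genes. The interval of this difference (-0.817 to 0) reached 0, and bound genes were higher on 8 of 19 autosomes. Within 250 bp on either side of the TSS, CpG observed over expected was 0.822 in bound and 0.777 in free genes. Of the bound core promoters 63.4% were CpG-rich (over 0.75 with at least 55% GC) and 5.85% were CpG-poor (under 0.48), against 52.8% and 13.7% of the free ones. The share with MOF was 20.6% in the lowest of 10 CpG classes, 56.3% in class 9 and 51.8% in the highest.

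Gene length differed little in its middle. The median span was 21.0 kb for bound genes (quartiles 8.44 and 47.2 kb) and 20.8 kb for free genes (quartiles 7.82 and 53.4 kb), a ratio of 1.01 (0.934 to 1.09) with bound genes longer on 8 of 19 autosomes. Averaged over the 10 CpG classes the ratio was 0.927, with bound genes longer in 3 of them. The difference was in the longest genes, since 606 bound genes (10.4%) and 1046 free genes (13.4%) spanned more than 100 kb, a difference of -3.02 points (-4.10 to -1.93), and the bound share was higher on 1 of 19 autosomes. The class of genes over 114 kb had MOF in 35.6%, against 47.5% in the class from 28.8 to 41.4 kb. The longest coding bound genes were Macrod2 (1995 kb), Ctnna3 (1574 kb), Robo2 (1555 kb), Prkg1 (1201 kb) and Wwox (913 kb). Among the free ones the longest were Ptprd (2271 kb), Cntnap2 (2241 kb), Fhit (1612 kb), Nrxn3 (1540 kb) and Magi2 (1478 kb), of which Ptprd, Cntnap2 and Nrxn3, all known for roles at synapses, had H3K4me3 peaks of 342 bp, 293 bp and 346 bp. At Fhit a MOF region ended 20 bp outside the window. The shortest coding bound genes were 5 genes for histone H4, from H4c3 (0.375 kb) to H4c9 (0.403 kb).

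Since paired genes had wider H3K4me3 peaks, the groups were also compared within classes. Averaged over the 10 width classes, the paired share was 9.44 points higher in bound genes (higher in 9 of 10 classes) and CpG observed over expected was 0.0538 higher (10 of 10). Averaged over the 10 CpG classes, the paired share was 9.70 points higher (10 of 10) and H3K4me3 width was 1.17 times as large (10 of 10). With genes divided into 3 classes of equal size by width and by CpG content, MOF was at 458 of 2125 unpaired genes in the lowest class of both (21.6%). It was at 274 of 764 unpaired genes with wide H3K4me3 and low CpG (35.9%), and at 695 of 1174 with wide H3K4me3 and high CpG (59.2%). Paired genes in the highest class of both had MOF in 711 of 1026 cases (69.3%).

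**Figure D2:**
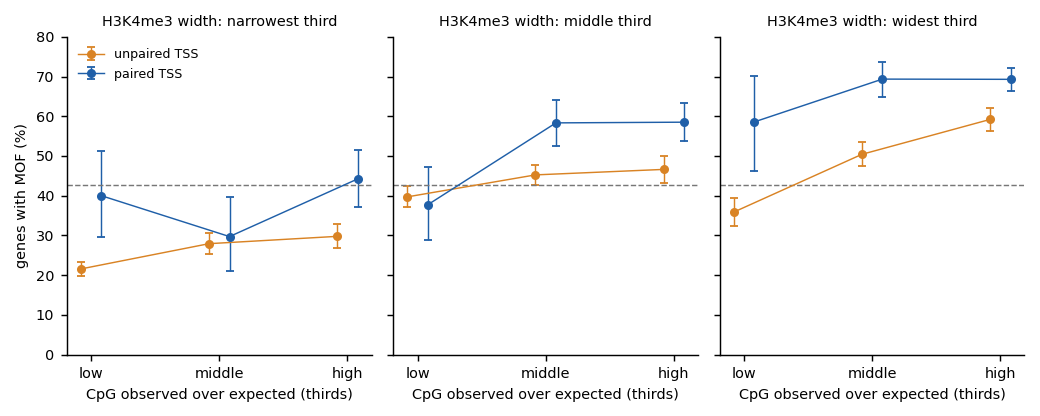
Share of H3K4me3 genes with MOF (%, vertical axis) by class of CpG observed over expected (low, middle and high, of equal size, horizontal axis), for paired and unpaired genes, with 1 panel for each of 3 classes of H3K4me3 width (limits at 1097 and 1563 bp). Points are shares with exact 95% intervals over genes and the dashed line is 42.8%; the share is 21.6% for unpaired genes with narrow H3K4me3 and low CpG and 69.3% for paired genes with wide H3K4me3 and high CpG.

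Other marks at the same windows also differed. H3K27ac was present at 5443 MOF-bound promoters (93.0%) and at 5516 MOF-free promoters (70.6%), a difference of 22.5 points (21.3 to 23.7) seen on 19 of 19 autosomes. With H3K4me3 peaks in the upper 50% of significance alone, it was 11.3 points. Of the 2707 genes with H3K4me3 and no H3K27ac, 407 (15%) had MOF, against 49.7% of the 10959 genes with both histone marks. Where H3K27ac was present, its median fold was 7.21 at bound and 6.34 at free genes. Averaged over the width classes the H3K27ac share was still 14.5 points higher in bound genes. Rfx2, a factor of the RFX family that binds promoters of ciliary genes, was listed at few promoters, 205 bound (3.50%) and 108 free (1.38%), with the bound share higher on 17 of 19 autosomes.

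The share with MOF differed widely between families of genes. In 50 families, 49 defined by gene symbol and the histones by RefSeq synonym, the share of H3K4me3 members with MOF ran from 4.55% to 83.8%. The 21 families of cell upkeep (mitochondrial, ribosomal, transcription, splicing, protein turnover, DNA replication and repair, and membrane traffic) had MOF at 650 of 1036 genes (62.7%), and each family lay above the 42.8% of all genes. The 22 families of lineage factors, signalling, epidermal structure and other tissue functions had MOF at 193 of 792 genes (24.4%), and each lay below. The difference was 38.4 points. Families and classes were chosen with earlier results of these data known, so this division describes the chosen families and tests nothing. The ciliary, histone, zinc finger and generic-name families, described further on, belong to neither side. The interval of the family's own share lay wholly above 42.8% in 13 of the 21 and wholly below it in 9 of the 22. Genes in no family were near the base, with 4570 of 10954 (41.7%).

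**Figure D3:**
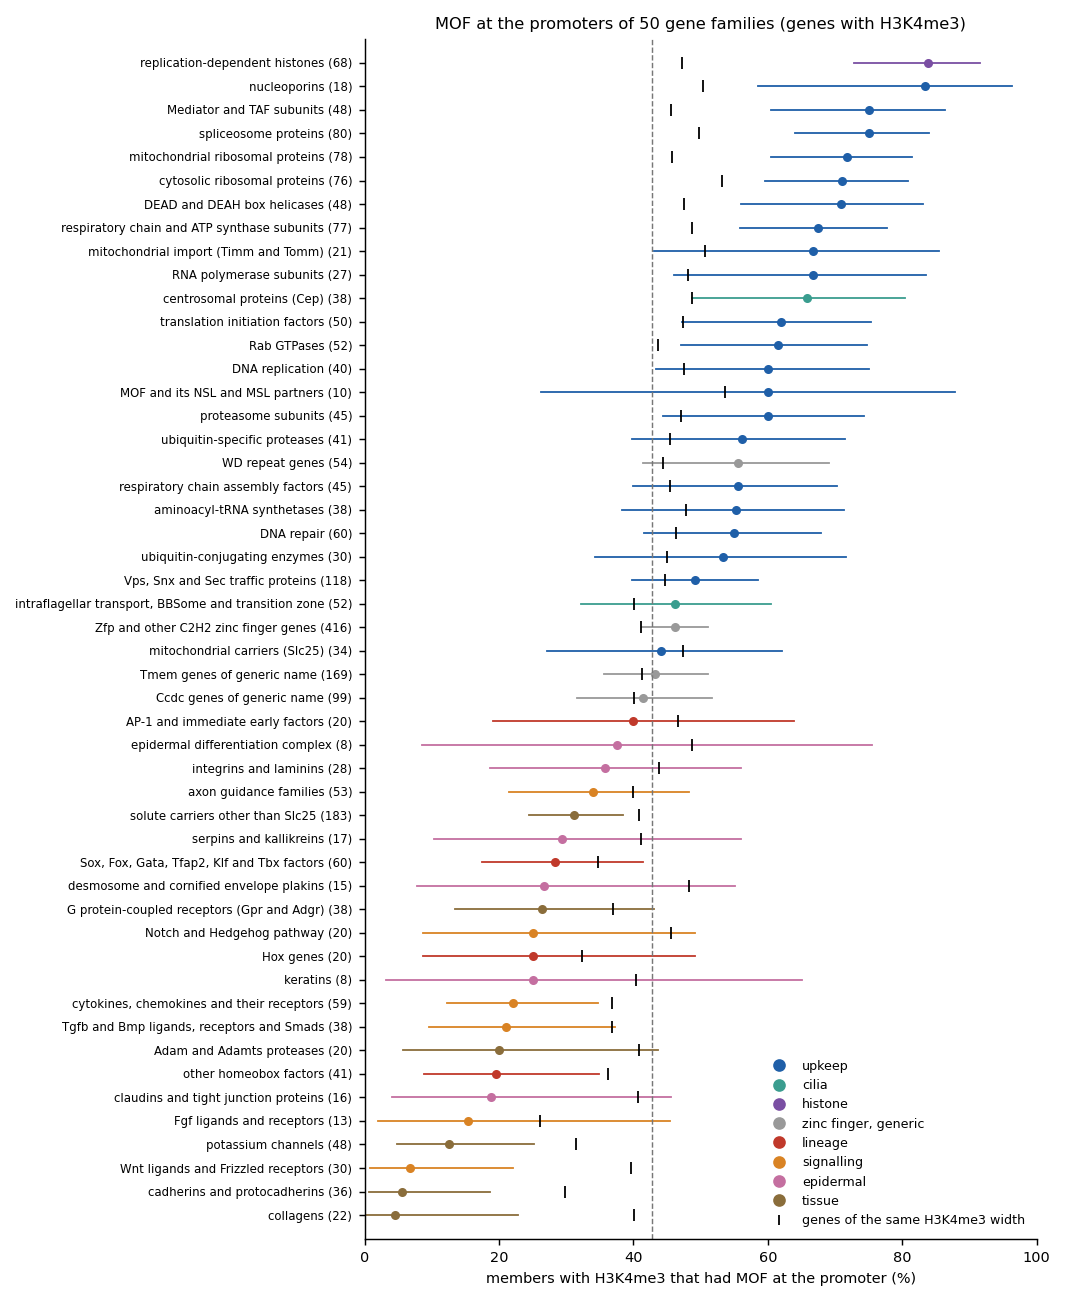
Share of members with H3K4me3 that had MOF at the promoter (%, horizontal axis) for 50 gene families, with exact 95% intervals over genes and the dashed line at 42.8%. Upkeep families sit between 44.1% and 83.3%, and lineage, signalling, epidermal and tissue families between 4.55% and 40%.

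The difference was also present at matched peak width. Genes of the same width classes as the upkeep genes had MOF in 47.3% of cases and those of the same width classes as the other 22 families in 38.4%. From the narrowest to the widest of 5 classes of H3K4me3 width, MOF was at 30.6%, 53.8%, 63.1%, 66.8% and 75% of upkeep genes. In the lineage, signalling, epidermal and tissue families the shares were 13.7%, 26.8%, 26.7%, 29.1% and 35.6%. The widest class of these had a share of 35.6%, and the narrowest class of upkeep genes one of 30.6%. Genes of the same CpG classes as the upkeep genes had MOF in 45.3% of cases and those of the same CpG classes as the others in 40.5%. Among unpaired genes alone the shares were 59.3% of 767 upkeep genes and 22.2% of 708 others, and among paired genes 72.5% of 269 and 42.9% of 84. H3K27ac was at 95.8% of the upkeep genes and at 57.8% of the others, and among genes with H3K27ac MOF was at 64.4% and 33.8%.

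Of the mitochondrial families 4 of 5 had MOF at most of their genes. Proteins of the mitochondrial ribosome had MOF at 56 of 78 genes (71.8%), subunits of the respiratory chain and ATP synthase at 52 of 77 (67.5%), import proteins of the Timm and Tomm groups at 14 of 21 (66.7%) and respiratory chain assembly factors at 25 of 45 (55.6%). Carriers of the inner membrane, the Slc25 family, had MOF at 15 of 34 (44.1%). This was the lowest share of the upkeep class, near the base of 42.8% and below the 47.3% of genes of the same H3K4me3 width, the 1 upkeep family of 21 for which this held. Of the loci the study named, Uqcrq, a small subunit of complex III, had a region of 1316 bp with a score of 1279, the highest score of the respiratory chain family, and Uqcrc1, a core protein of the same complex, one of 790 bp with a score of 766. Opa1, which fuses inner mitochondrial membranes, had a score of 1116. Within the same complexes other subunits were free, among them Ndufa3, Ndufs8 and Cox6b1, with H3K4me3 folds of 13.8, 11.6 and 11.8 and with MOF no nearer than 27.4, 57.6 and 6.70 kb. The mitochondrial ribosomal genes Mrpl44 and Mrps22 were bound and Mrpl16 and Mrps25 free, at like H3K4me3 folds between 12.9 and 14.4.

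Families of the gene expression machinery were bound at most of their genes, against 42.8% of all H3K4me3 genes. Nucleoporins, the proteins of the nuclear pore, had MOF at 15 of 18 genes (83.3%), with Nup37, Nup205 and Nup210 the free members. Subunits of Mediator and the TAF proteins, which link activators to RNA polymerase II, had MOF at 36 of 48 (75%), spliceosome proteins at 60 of 80 (75%), cytosolic ribosomal proteins at 54 of 76 (71.1%), DEAD and DEAH box RNA helicases at 34 of 48 (70.8%) and RNA polymerase subunits at 18 of 27 (66.7%). The RNA polymerase III subunit Polr3b had a short MOF region of 403 bp with a high score of 2140. Translation initiation factors were bound at 31 of 50 genes (62.0%) and aminoacyl-tRNA synthetases at 21 of 38 (55.3%). The interval of the synthetases (38.3 to 71.4) included 42.8%. Aars2, the mitochondrial alanyl-tRNA synthetase, was bound with an H3K4me3 fold of 17.8, and Taf6l was free with one of 17.1. In protein turnover and DNA upkeep, MOF was at proteasome subunits in 27 of 45 cases (60%), at DNA replication genes in 24 of 40 (60%) and at DNA repair genes in 33 of 60 (55%). Rab GTPases of vesicle traffic were bound at 32 of 52 (61.5%) and the Vps, Snx and Sec proteins at 58 of 118 (49.2%). The intervals of the DNA repair genes (41.6 to 67.9) and of the Vps, Snx and Sec proteins (39.8 to 58.5) both included 42.8%.

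Replication-dependent histone genes stood apart from the other families. MOF was at 57 of the 68 with H3K4me3 (83.8%), although only 38 of them had H3K27ac and their median H3K4me3 fold was low, 4.66. Many of these genes lie side by side and share a peak, so the count is of fewer regions. The next 3 groups had lower shares, namely genes of Cep symbol, mostly for centrosomal proteins (25 of 38, 65.8%, with the opposite-strand transcript Cep83os among the free), intraflagellar transport, BBSome and transition zone proteins of the cilium (24 of 52, 46.2%), and zinc finger genes named Zfp and the like (192 of 416, 46.2%). The intervals of the ciliary group (32.2 to 60.5) and the zinc finger group (41.3 to 51.1) both included the 42.8% of all genes with H3K4me3. Among ciliary genes Ift74 (score 919), Ift122 (653) and Wdr34 (801) were bound, while Dync2h1, Dync2li1 and Mks1 were free with H3K4me3 folds of 16.9, 17.1 and 15.8.

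MOF was present at its own gene and at part of its complexes. Of the 10 genes in this family 6 were bound (60%), and the interval (26.2 to 87.8) included the 42.8% of all H3K4me3 genes. Kat8 carried a MOF region of 1176 bp at chr7:127911792-127912967 (score 987) over an H3K4me3 peak of 1202 bp. Of the NSL members, Kansl1 (score 2289), Kansl3 (827), Mcrs1 (494) and Phf20 (662) were bound, and Kansl2 and Wdr5 were free, with MOF 29.3 kb and 24.9 kb away. The Phf20 relative Phf20l1 was free as well. Of the MSL members, Msl2 (659) was bound and Msl1 was free, with a MOF region 5.30 kb from its window.

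Signalling families had MOF at 48 of 213 genes (22.5%, interval 17.1 to 28.7), against 42.8% of all genes with H3K4me3. Of the 6 families, 3 had intervals wholly below that share, while those of the Fgf family (1.92 to 45.4), the Notch and Hedgehog family (8.66 to 49.1) and the axon guidance family (21.5 to 48.3) included it. Of 30 genes of Wnt ligands, Frizzled receptors and the secreted inhibitors of the Sfrp and Dkk groups with H3K4me3, only Fzd9 (score 823) and Fzd7 (453) had MOF (6.67%, interval 0.818 to 22.1), where genes of the same H3K4me3 width had it in 39.6%. Their H3K4me3 was not narrow, with a median of 1274 bp, and reached 3314 bp at Wnt3, 2970 bp at Fzd5, 2326 bp at Wnt10a and 2300 bp at Wnt7a. At Wnt7b and Sfrp1 a MOF region lay 324 bp and 509 bp outside the window. Fgf ligands and receptors had MOF at 2 of 13 (Fgf2 and Fgfr1), Tgfb and Bmp pathway genes at 8 of 38 (21.1%) and cytokines and chemokines with their receptors at 13 of 59 (22.0%). In the Tgfb and Bmp pathway the bound genes were the Smad mediators Smad1, Smad4 and Smad5, the receptors Acvr2b, Bmpr1b, Bmpr2 and Tgfbr3 and the ligand Gdf7. Other mediators and receptors were free, among them Smad2, Smad3, Smad6, Smad7, Smad9, Tgfbr1, Tgfbr2, Bmpr1a and Acvr1. The ligands Tgfb1, Tgfb2, Tgfb3 and Bmp7 were free as well, with H3K4me3 of 2259 bp (Tgfb2) to 3247 bp (Tgfb3). In the Notch and Hedgehog pathways 5 of 20 were bound: Notch2, Jag1, Smo, Ptch1 and Gli3. Notch1, Dll1, Hes1, Gli1 and Gli2 were free, with widths from 2348 bp at Hes1 to 3566 bp at Gli1. Axon guidance families had the highest share of this class, 18 of 53 (34%), which included Unc50, a gene taken in by its symbol alone.

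Lineage transcription factors had MOF at 38 of 141 genes (27%), against 42.8% of all H3K4me3 genes, and the interval lay wholly below that base in 2 of their 4 families. Hox genes had MOF at 5 of 20 (Hoxa5, Hoxb4, Hoxb9, Hoxc10 and Hoxd11, with an interval of 8.66% to 49.1%), other homeobox factors at 8 of 41 (19.5%), and the Sox, Fox, Gata, Tfap2, Klf and Tbx factors at 17 of 60 (28.3%). Klf6, Klf11, Sox15 and Sox6 were bound. Sox9, a hair follicle factor, had an H3K4me3 peak of 2832 bp, Tfap2c one of 2671 bp and Foxn1 one of 2131 bp, and all 3 were free. The AP-1 and immediate early factors, which cells induce within minutes of a stimulus, had MOF at 8 of 20 genes (40%, interval 19.1 to 63.9). Measured over the whole region, 6 of the 8 MOF regions were 2000 bp or more, as were 446 (7.62%) of all bound genes. At Fos the region was 4138 bp (score 1217), at Jun 3985 bp (score 2351) and at Ier2 4268 bp (score 801), each longer than the gene's own H3K4me3 peak, which was 1883, 2436 and 1613 bp. In all, 11 bound genes had MOF regions of 3900 bp or more. These widths rest on the outer ends of the regions: the inner blocks that the list marks within them were at most 1936 bp long at Fos, 794 bp at Jun and 211 bp at Ier2. Fos, Jun and Ier2 were picked after their values had been seen. Junb, Egr1 and Fosb counted as free although MOF regions lay 36 bp, 442 bp and 440 bp outside their windows.

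Epidermal structure genes had MOF at 27 of 92 (29.3%), and the interval of none of their 6 families lay wholly below 42.8%. The median H3K4me3 width was 2023 bp for the keratins and 2215 bp for the desmosome genes, against 1145 bp for the claudin family, and members of each varied widely. Only 8 of 54 autosomal keratin genes had H3K4me3, and MOF was at Krt14 and at Krt80, whose peak was the narrowest of the 8 at 426 bp. The free keratins were Krt5 (2710 bp), Krt15 (2306 bp), Krt17 (2202 bp), Krt79 (1844 bp), Krt222 (577 bp) and Krt16 (548 bp). Desmosome and cornified envelope genes had the widest peaks of any family, with a median of 2215 bp, and MOF at 4 of 15. The bound ones were Dsc3, Jup, Evpl and Pkp4, and the free ones were Pkp1, Perp, Pkp3, Dsg3, Dsp, Dsg2 and Ppl, all above 2000 bp, and the narrower Pkp2 (1108 bp), Dsg1a (840 bp), Dsc2 (799 bp) and Dsg1b (726 bp). The MOF peak nearest to Dsc2 lay 219 bp outside the window. Genes of the same width had MOF in 48.3% of cases. The family of integrins and laminins, receptors and ligands of the basement membrane, had MOF at 10 of 28 (35.7%), among them Itgb1, Lama3 and Dst, while Itgb4, Itga3 and Lama5 were free. Dst, Plec and Col17a1 were counted in that family although they encode neither integrins nor laminins, and Itgb3bp and Itgb1bp1 were taken in by symbol only. Claudins and tight junction proteins were bound at 3 of 16, and the epidermal differentiation complex at 3 of 8, all of them S100 genes.

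Among the remaining tissue families, collagens had MOF at 1 of 22 genes (4.55%, interval 0.115 to 22.8), namely Col1a2, against 40% for genes of the same H3K4me3 width. Cadherins and protocadherins had it at 2 of 36 (Pcdh20 and Pcdhgc3) and genes of Kcn symbol, mostly potassium channels, at 6 of 48 (12.5%). H3K27ac was at 9 of the 22 collagen, 8 of the 36 cadherin and 13 of the 48 potassium channel genes. Solute carriers other than Slc25, which include transporters of broadly used metabolites, had MOF at 57 of 183 (31.1%). The Gpr and Adgr genes, mostly orphan and adhesion receptors, had it at 10 of 38 (26.3%, interval 13.4 to 43.1) and the Adam and Adamts proteases at 4 of 20 (20%, interval 5.73 to 43.7), and both intervals reached the 42.8% of all genes with H3K4me3.

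Short sequence motifs were counted from 250 bases upstream to 50 downstream of each start site, on both strands. The difference between the groups was widest for the ETS letters CCGGAAG, present at 23.8% of MOF-bound and 14% of MOF-free promoters against 11.1% of all 24963 autosomal promoters. The difference was 9.79 points (8.46 to 11.1), it was seen on 19 of 19 autosomes, and it was 8.32 points when averaged over classes of CpG content. Promoters with the ETS letters had MOF in 56% of cases and those without in 39.9%. The YY1 letters ATGGCG were at 19.6% of bound and 12.8% of free promoters, the CREB letters TGACGT at 15.3% and 9.30%, the NRF1 letters TGCGCA at 17.6% and 11.6%, and the ZBTB33 letters TCTCGCG at 7.68% and 3.92%. ETS, CREB, NRF1 and ZBTB33 letters contain CG, and so does YY1, and each of the 5 kept a higher bound share on average over 10 CpG classes. The share was higher in all 10 classes for ETS, CREB and NRF1, in 9 for YY1 and in 8 for ZBTB33. The bound minus free difference within CpG classes was smaller than over all promoters, at 8.32 against 9.79 points for ETS, 5.05 against 6.72 for YY1, 4.29 against 5.94 for NRF1 and 2.51 against 3.76 for ZBTB33, each below the interval of the pooled difference. The NFY letters CCAAT (39.0% and 36.4%), the ZNF143 letters ACTACAA (4.89% and 3.35%) and the E-box CACGTG (10.9% and 9.85%) differed by fewer than 3 points.

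Other motifs did not separate the groups in that direction. The SP letters GGGCGG were at 69.4% of bound and 67.6% of free promoters, and the sign of this difference turned, to -3.58 points within CpG classes and to -1.16 points from 100 bases upstream to 50 downstream. The RFX letters GTTGCCA were at 3.23% of bound and 3.90% of free promoters, a difference of -0.671 points (-1.29 to -0.0385). The last 4 were the AP-1 letters TGANTCA (N is any base), the letters AGATAA of the GATA factors, the letters GGGTGTG of the KLF factors and the TATA box TATAAA placed 40 to 20 bases upstream. For each of them the interval of the difference included 0. All 4 were rarer or about as frequent in H3K4me3 promoters as in all promoters, the AP-1 letters for instance at 3.86% of bound and 4.36% of free against 7.14% of all. A match shows only that the letters are there.

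**Figure D4:**
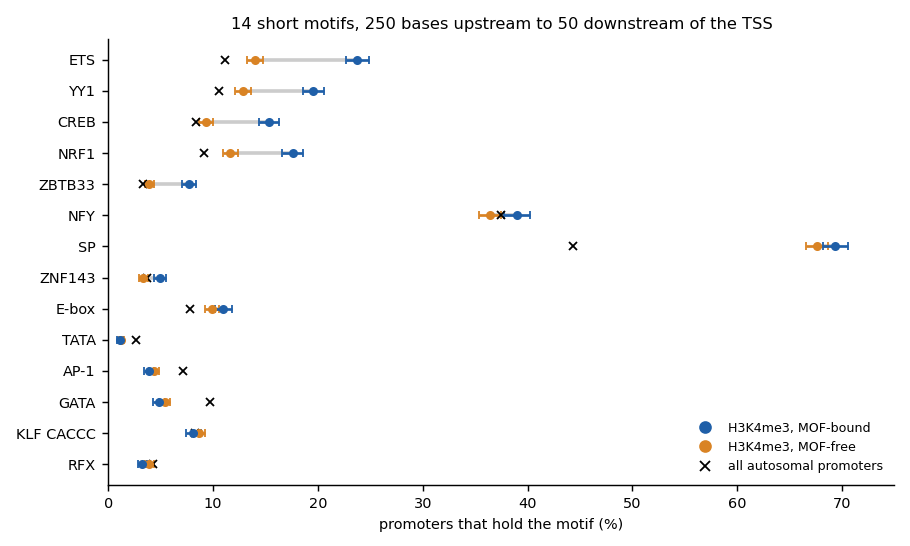
Share of promoters holding each of 14 short motifs (%, horizontal axis) in MOF-bound genes, MOF-free genes and all 24963 autosomal promoters, counted on both strands from 250 bases upstream to 50 downstream of the TSS, except TATA, which was placed 40 to 20 bases upstream. The widest difference is that of ETS, 23.8% against 14%, while AP-1, GATA, TATA and KLF CACCC differ by less than 1 point.

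Within the bound group MOF regions had a median width of 1028 bp (quartiles 695 and 1459) and a median score of 662 (quartiles 500 and 890), on a scale that the sources used here do not state. Over the inner blocks alone the median width was 332 bp. Across the same kind of 5 width classes, made among bound genes, the median MOF width was 840, 882, 976, 1074 and 1369 bp. Across the 5850 genes the rank correlation (Spearman) was 0.290 between both widths and -0.0305 between MOF score and H3K4me3 fold, given as descriptions over genes that are not independent. In bound genes with 1 start site, the region covered the TSS in 86.5% of 3300 unpaired and 88.8% of 1295 paired genes. Its centre lay at a median of 69 bp downstream of the TSS in unpaired genes and at -90 bp, on the side of the partner gene, in paired genes. H3K4me3 peaks were placed likewise, with centres at 221 bp and -94 bp.

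**Figure D5:**
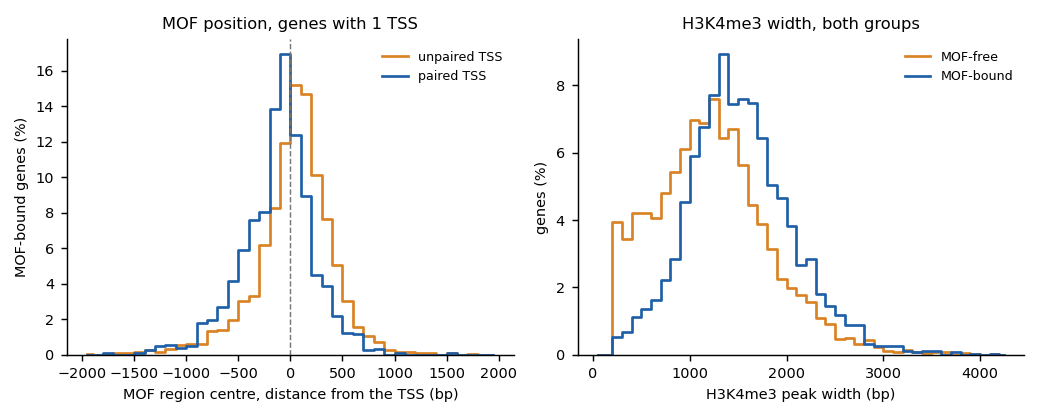
Left, distance of the MOF region's centre from the TSS (bp, negative upstream) as a share of MOF-bound genes with 1 TSS (%), for paired and unpaired genes, whose medians are -90 and 69 bp. Right, H3K4me3 peak width (bp) as a share of genes (%) in the MOF-bound and MOF-free groups, with medians of 1476 and 1199 bp and much overlap.

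The distance of MOF-free genes from MOF varied widely. The nearest MOF region lay at a median of 24.3 kb from the window (quartiles 9.75 and 55 kb), and for 979 genes (12.5%) it was more than 100 kb away. It was within 1 kb for 473 genes (6.05%), within 5 kb for 14.1% and within 20 kb for 3436 genes (44%). In 332 genes (4.25%) MOF overlapped the same H3K4me3 peak outside the window.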

How the data were processed

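Peaks were called by the authors, and 4 deposited lists were used: MOF by ChIPseq, and H3K4me3, H3K27ac and Rfx2 by Cut&Run, 1 library each. Reads were aligned by the authors with Bowtie2 (very sensitive, local) to mm10, and MACS2 was run library by library, with no fragment model and an automatic cap on duplicates for MOF. A control library was not given in the sources used here. The deposited Cut&Run lists give each peak a fold enrichment and a −log10 q-value. The deposited MOF list has 12 columns, with regions made of 1-bp edge blocks and an inner block and with a score of unstated scale, used only to describe MOF-bound genes and to rank regions. Depth is not given in the lists, and the reads per library that the study reports were not used.

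Peaks were set against curated RefSeq transcripts (NM or NR) of GRCm38.p6, and 0 peaks ended beyond a chromosome. MOF, H3K27ac and Rfx2 were sought in the windows that held H3K4me3. CpG content and motifs were read at 1 TSS per gene, the one whose window shared most bases with H3K4me3. Intervals, medians and classes were computed in Python 3.11.15 (pandas 2.3.3, scipy 1.17.1). Window overlaps were checked against bedtools 2.31.1 on simulated data (0 of 20000 differed), and gene pairing against a search over all pairs (0 of 1500). Genes, families, motifs and comparisons were chosen with earlier results of these data known. Named genes were up to 3 bound and 3 free members per family with the highest H3K4me3 fold, the extremes of width, length and paired fold, the study's loci and the markers. The others were chosen after their values were seen, including the family members named for their function or width. Alternatives were other windows, stricter lists, MOF centres, 1 gene per peak, subsets of genes and comparison within width classes. No test was run.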

Additional observations from a re-analysis of the deposited data

How the results depend on the processing

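Of 136 values recomputed under alternatives, 89 stayed within the interval of the value reported or, for motifs, of the reported difference, 45 moved beyond it and 2, of a difference whose interval excluded 0, changed sign. The 2 were the SP motif, whose difference became -1.16 points from 100 bases upstream to 50 downstream and -3.58 points within CpG classes. Differences whose intervals included 0 changed sign too, namely GATA (0.354 points in the shorter window, 0.528 within CpG classes), AP-1 (0.273 within CpG classes) and TATA (0.00383 within CpG classes). Rfx2 and, among these alternatives, gene length stayed within their intervals, but the length ratio was 0.927 within CpG classes and 1.23 in paired genes, both outside it. No paired analysis was possible because 1 list stood for each antibody, and for the same reason no replicate could be left out.

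With MOF regions in the upper 50% of score, the share of H3K4me3 genes with MOF was 26.7%, the H3K27ac difference 18.9 points and the family difference 29.2 points. With H3K4me3 peaks in the upper 50% of significance, the share was 48.2%, the paired difference 13.2, H3K27ac 11.3 and families 32.2 points, the width ratio 1.12 and the fold ratio 0.939. With the MOF centre in the window, the share was 26.8%, paired 20.6, H3K27ac 18.5 and families 26.9 points, CpG 0.105 and width 1.19. CpG differed by 0.0509 in windows of 500 bp and 0.0650 in windows of 1 kb around the TSS in each direction, the latter with a MOF share of 44.3%, and by 0.0452 within 250 bp. With 1 gene per H3K4me3 peak, the share was 40.8% and the paired difference 9.67 points. In genes with H3K27ac, the share was 49.7%, paired 13.0 and families 30.6 points, CpG 0.0666, width 1.12 and fold 0.976. Within width classes, paired was 9.44 and families 30.5 points and CpG 0.0538. ETS was 8.17 points in the shorter window and 8.32 within CpG classes. Inner MOF blocks alone and genes with 1 TSS were chosen after seeing the data: the former gave a share of 37.5% and a median MOF width of 332 bp, and the latter moved none of the 9 values beyond its interval. The cause of these moves was not tested beyond what each alternative leaves out. The fold ratio, which was also 1.06 within CpG classes, lay on either side of 1 and gives no constant direction.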

Other observations

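Noncoding genes with H3K4me3 differed by class. Small nucleolar RNA genes had MOF at 29 of 54 (53.7%, interval 39.6 to 67.4), a class that usually lies within introns of host genes, and small nuclear RNA genes at 11 of 15 (73.3%, interval 44.9 to 92.2). MicroRNA genes had it at 50 of 157 (31.8%), transcribed pseudogenes at 23 of 83 (27.7%) and ribosomal RNA genes at 1 of 16. Protein-coding genes, at 43.3%, set the base.

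Paired genes alone differed in length, with medians of 17.1 kb in bound and 13.9 kb in free genes (ratio 1.23, interval 1.06 to 1.5). In unpaired genes the medians were 22.4 kb and 22.1 kb (ratio 1.02, interval 0.938 to 1.10). WD repeat genes were bound at 30 of 54 (55.6%), with an interval (41.4 to 69.1) that included the 42.8% of all H3K4me3 genes. Genes of generic name were near that base, with Tmem genes at 73 of 169 (43.2%) and Ccdc genes at 41 of 99 (41.4%).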
